A study of Mus musculus with 12 samples.

Results

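The genes described here encode 10 non-collagen proteins of fibroblast matrix and collagen processing. They are a collagen chaperone (Serpinh1), a pair of cross-linking enzymes (Lox and Loxl2), a pair of small leucine-rich proteoglycans (Dcn and Lum), 2 microfibril and elastic-fibre proteins (Fbn1 and Fbln1) and 3 matricellular proteins (Thbs1, Postn and Sparc). They were listed by name, without a threshold on any measured value, but with earlier results of these data known. Each was found by its Ensembl ID, so they are 10 of the 54532 genes in the count tables. The tissue was mouse striatum, taken 7 or 14 days after ischemic stroke. At each time there were wild-type mice (WT), mice labelled as lacking Cgas (cGAS-KO) and mice labelled as lacking Tmem173, the gene of STING (STING-KO), all on the C57BL/6J strain. Each of the 6 groups held 2 libraries, 12 in all, made from polyA+ RNA. Every group had had a stroke, and an uninjured group was not analysed here. Both mutant lines were made with CRISPR-Cas9; age, sex, the way the stroke was induced, and whether a library is 1 mouse or a pool are not given in the sources used here. Nothing in the labels says that the replicates came from separate animals, so the p-values below measure the spread between these libraries, which may be technical.

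After a brain lesion, fibroblasts of the meninges and vessel walls can build a fibrotic scar of collagen-rich matrix in the lesion core, beside the glial scar made by astrocytes. Collagen chains are folded in the endoplasmic reticulum with the help of the chaperone HSP47, encoded by Serpinh1, and after secretion the fibrils are joined by covalent cross-links that lysyl oxidases (Lox, Loxl2) begin. Decorin (Dcn) and lumican (Lum) bind collagen fibrils and regulate their thickness, fibrillin-1 (Fbn1) forms the microfibrils on which elastic fibres and latent TGF-beta are held, and fibulin-1 (Fbln1) binds elastic fibres and basement membranes. Thrombospondin-1 (Thbs1), periostin (Postn) and SPARC (Sparc) are matricellular proteins, which modulate how cells meet their matrix; thrombospondin-1 can also activate latent TGF-beta, and SPARC binds collagen and is made by glia and endothelium as well as by fibroblasts. cGAS senses DNA in the cytosol and STING relays that signal to interferon and inflammatory genes.

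Library totals ran from 15956242 to 22126213 counts, and 23492 to 25861 genes had a count in a library. Levels are given as CPM, counts scaled to a common size set by the TMM-normalised library total, where 3 counts are worth 0.133 to 0.195 CPM; such floors cover counting error only. All 10 genes passed the filter on low counts, as did 19822 genes in all. The targeted genes did not follow the labels in every group. At 7 days Cgas reached 5.55 and 5.66 CPM under the label cGAS-KO, above WT with 3.25 and 2.97 CPM. Tmem173 reached 20.9 and 23.8 CPM under the label STING-KO at that time, above WT with 2.80 and 2.71 CPM. At 14 days Tmem173 was lower in the libraries labelled STING-KO (2.40 and 5.21 CPM) than in WT (22.3 and 20.8 CPM). Cgas at 14 days was at 4.09 and 6.15 CPM under the label cGAS-KO and at 12.6 and 7.68 CPM in WT (edgeR adjusted p = 0.270). Under the label STING-KO it was at 4.499 and 3.58 CPM (edgeR adjusted p = 0.00603 against WT), which overlaps the libraries labelled cGAS-KO. The position of the deletions is not given in the sources used here, and a transcript can persist outside a deleted part, so the names cGAS-KO and STING-KO below are those of the labels. The striatal markers Drd1 and Drd2 were low at 7 days, with Drd1 between 1.84 and 12.9 CPM in the 6 libraries, and high in 14-day STING-KO (Drd1 376 and 325 CPM). Slc17a7, a marker of cortical and hippocampal pyramidal neurons, was at 1272 and 1524 CPM in 7-day WT and at 10.3 to 439 CPM in the other 10 libraries. On the first principal component (50.9% of variance) 7-day WT and 14-day STING-KO stood on the side opposite to the 7-day knockouts. In tissue RNA, fewer cells of a type and less RNA per cell cannot be told apart.

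RefSeq promoter sequences (GRCm38.p6) were matched for 5 of the genes. The stretches upstream of 3 of them are shown because their RefSeq start lay within 10 bases of the GENCODE M21 gene start, which places the window at the start of the gene that was counted; they encode a chaperone, a matricellular protein and an elastic-fibre protein. Each line gives the 250 bases before the RefSeq start, 5′ to 3′ on the gene's strand. Capitals mark matches, on either strand, to 5 short motifs: the TATA box TATAAA, the AP-1 site TGANTCA, the SMAD box CAGAC, which reads GTCTG from the other strand, the TEAD site GGAATG and the GC box GGGCGG; no matches overlapped each other.
Serpinh1, chr7:99353240-99353489, minus strand: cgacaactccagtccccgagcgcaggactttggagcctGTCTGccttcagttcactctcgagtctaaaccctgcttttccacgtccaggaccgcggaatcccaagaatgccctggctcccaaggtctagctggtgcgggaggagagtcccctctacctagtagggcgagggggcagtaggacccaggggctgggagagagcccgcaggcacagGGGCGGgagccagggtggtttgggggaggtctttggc
Postn, chr3:54360857-54361106, plus strand: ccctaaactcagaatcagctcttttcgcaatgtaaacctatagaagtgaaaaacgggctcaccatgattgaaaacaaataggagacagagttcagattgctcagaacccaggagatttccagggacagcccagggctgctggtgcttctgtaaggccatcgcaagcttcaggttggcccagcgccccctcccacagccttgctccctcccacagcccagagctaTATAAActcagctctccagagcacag
Fbln1, chr15:85205699-85205948, plus strand: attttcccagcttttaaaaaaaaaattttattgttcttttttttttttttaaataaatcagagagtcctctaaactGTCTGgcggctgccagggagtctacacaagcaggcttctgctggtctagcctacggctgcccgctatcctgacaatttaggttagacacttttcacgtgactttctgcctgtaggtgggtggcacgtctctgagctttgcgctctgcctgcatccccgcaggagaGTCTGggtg

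Serpinh1 held a SMAD box at 212 to 208 bases upstream, on the strand opposite the gene, and a GC box at 37 to 32. Postn held a TATA box at 26 to 21 bases upstream, and Fbln1 held 2 SMAD boxes on the opposite strand, at 174 to 170 and at 9 to 5. Among 32851 mouse promoter windows of the same length, 12.4% held the TATA box, 6.75% the AP-1 site, 42.2% the SMAD box, 12.6% the TEAD site and 32.7% the GC box. These matches describe the letters of the windows and were not tested against the expression values.

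Across the 6 groups, the genes had a common shape: high in both knockouts at 7 days and low elsewhere. In all 10 genes the 4 libraries of the 7-day knockouts lay above the other 8 libraries, as they did for 16.3% of all genes tested; for 10.6% they lay below. The gap was narrow for Postn, with 15.5 CPM in the lowest 7-day knockout library and 13.4 CPM in the highest of the rest, and for Dcn, with 80.3 and 67.4 CPM. It was wide for Thbs1, with 152 and 30.1 CPM. The lowest group mean was that of 7-day WT for 5 genes (Serpinh1, Postn, Lox, Loxl2 and Fbln1), of 14-day STING-KO for 4 (Thbs1, Lum, Dcn and Sparc) and of 14-day cGAS-KO for Fbn1. Of the 50 pairs of groups that were neighbours in these orders, 16 had overlapping libraries; 14-day WT and 14-day cGAS-KO overlapped as neighbours for Serpinh1, Postn, Lox, Fbn1, Fbln1 and Sparc. Together the 10 genes took 0.0367% to 0.0945% of the counts in the libraries outside the 7-day knockouts and 0.189% to 0.320% in the 7-day knockouts.

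**Figure D1:**
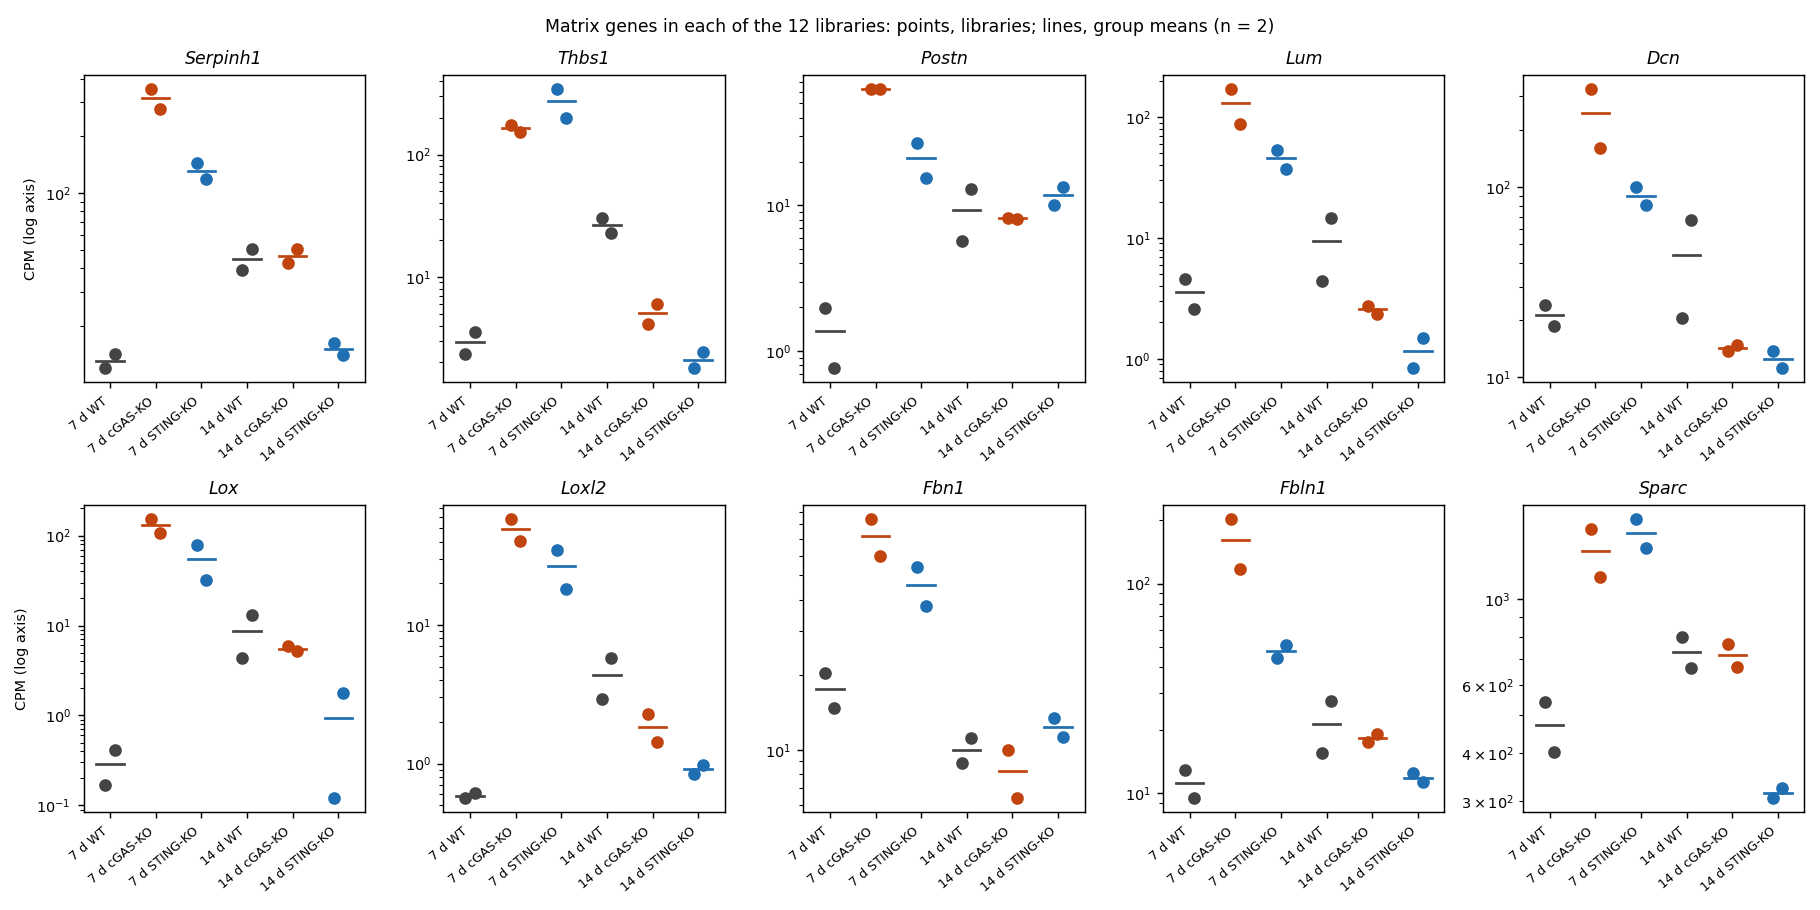
Each panel shows 1 gene in CPM on a log axis; points are the 12 libraries and lines are the means of the 6 groups (n = 2). In all 10 panels the 4 libraries of the 7-day knockouts lie above the other 8 (16.3% of all genes tested), from a ratio of 1.16 between the nearest libraries for Postn to 5.05 for Thbs1.

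At 7 days all 10 matrix genes rose in both knockouts against WT. The rises ran from 1.497 (Sparc) to 8.75 (Lox) on the log2 scale in cGAS-KO, with a median of 4.89, and from 1.38 (Fbn1) to 7.52 (Lox) in STING-KO, with a median of 3.50. These comparisons moved much of the transcriptome: 50.3% of all genes tested were called in cGAS-KO (27.8% higher) and 48.9% in STING-KO (26.3% higher), at an edgeR quasi-likelihood adjusted p below 0.05. The medians over all genes tested were 0.04 and 0.03. The libraries of each knockout were fully above those of WT for all 10 genes, against 41.9% of all genes in cGAS-KO and 41.7% in STING-KO. Both comparisons share the same 2 WT libraries.

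Serpinh1, the collagen chaperone, was at 354 and 277 CPM in 7-day cGAS-KO, at 144 and 118 CPM in 7-day STING-KO and at 11.9 and 14.1 CPM in 7-day WT. The groups did not overlap, and Serpinh1 was higher by 4.60 ± 0.22 (log2 change ± SE, n = 2 per group, edgeR adjusted p = 1.43e-07) in cGAS-KO and by 3.33 ± 0.21 (adjusted p = 3.22e-07) in STING-KO. Lox, the lysyl oxidase that starts cross-linking of collagen and elastin, was at 154 and 106 CPM in cGAS-KO, at 78.1 and 32.0 CPM in STING-KO and at 0.168 and 0.409 CPM in WT. The WT values rest on 11 counts over both libraries, 3 of them in replicate 1, so its fitted changes (8.75 ± 0.86 and 7.52 ± 0.86) rest on few counts. The ratio of summed counts per normalised library size was 435 (95% exact interval 243 to 871) for cGAS-KO and 184 (103 to 369) for STING-KO, for counting error only. Loxl2, a lysyl oxidase-like enzyme that acts on collagen type IV among others, was at 58.4 and 40.4 CPM in cGAS-KO, at 34.9 and 18.2 CPM in STING-KO and at 0.561 and 0.614 CPM in WT. Its WT libraries were the closest to each other of the 3 groups, and it was higher by 6.37 ± 0.49 (edgeR adjusted p = 1.56e-06) and by 5.48 ± 0.50 (adjusted p = 4.71e-06).

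Both proteoglycans were counted in 7-day WT and lay higher in the knockouts. Dcn was at 24.0 and 18.7 CPM there, at 330 and 160 CPM in cGAS-KO and at 100.2 and 80.3 CPM in STING-KO. Lum was at 4.54 and 2.61 CPM in WT, at 172 and 87.7 CPM in cGAS-KO and at 53.7 and 37.1 CPM in STING-KO. For both genes replicate 1 of cGAS-KO was the highest library and replicate 2 the next, and both WT libraries lay below all 4 knockout libraries. Dcn was higher by 3.52 ± 0.49 (edgeR adjusted p = 0.000128) in cGAS-KO and by 2.08 ± 0.47 (adjusted p = 0.00347) in STING-KO; the changes of Lum were 5.19 ± 0.54 (adjusted p = 1.63e-05) and 3.67 ± 0.53 (adjusted p = 0.000168).

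Of the microfibril and elastic-fibre genes, Fbn1 was at 84.3 and 59.8 CPM in cGAS-KO, at 53.9 and 37.6 CPM in STING-KO and at 20.3 and 14.7 CPM in WT. Its changes were among the smaller ones, 2.04 ± 0.27 (edgeR adjusted p = 6.87e-05) and 1.38 ± 0.27 (adjusted p = 0.00116). Fbln1 was at 204 and 117 CPM in cGAS-KO, at 44.2 and 51.1 CPM in STING-KO and at 12.9 and 9.46 CPM in WT. It stood higher in cGAS-KO than in STING-KO in both libraries, with changes against WT of 3.84 ± 0.32 (edgeR adjusted p = 2.89e-06) and 2.09 ± 0.30 (adjusted p = 0.000175).

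The matricellular genes differed in their order. Thbs1 was at 175 and 152 CPM in cGAS-KO, at 347 and 199 CPM in STING-KO and at 2.36 and 3.53 CPM in WT, so that here STING-KO was the higher knockout. Thbs1 rose by 5.79 ± 0.34 (edgeR adjusted p = 3.96e-07) in cGAS-KO and by 6.52 ± 0.35 (adjusted p = 1.78e-07) in STING-KO. Postn was at 63.3 and 62.7 CPM in cGAS-KO, at 26.7 and 15.5 CPM in STING-KO and at 1.96 and 0.767 CPM in WT, with rises of 5.54 ± 0.47 (edgeR adjusted p = 3.48e-06) and 3.96 ± 0.47 (adjusted p = 4.29e-05). Sparc, which was abundant in WT too (542 and 401 CPM), was at 1519 and 1142 CPM in cGAS-KO and at 1614 and 1354 CPM in STING-KO. Its rises were 1.497 ± 0.21 (edgeR adjusted p = 0.000103) and 1.65 ± 0.21 (adjusted p = 5.43e-05).

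**Figure D2:**
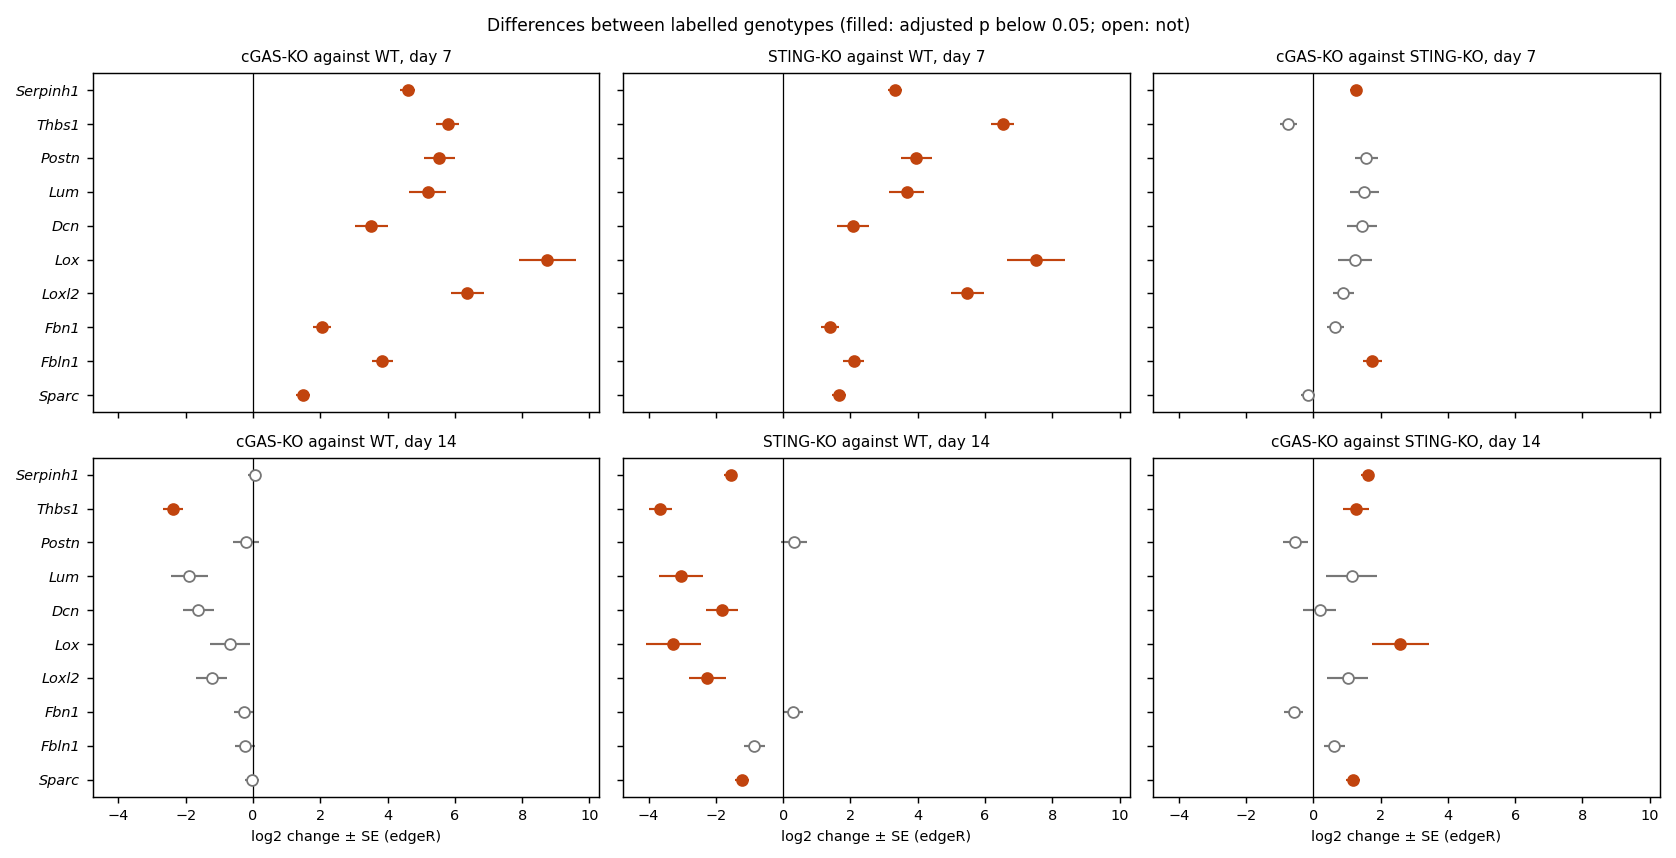
Points are log2 changes of the 10 genes between genotypes at 7 and 14 days, bars are SE (edgeR, n = 2 per group), and filled points have an adjusted p below 0.05. At 7 days all points against WT lie above 0, with medians of 4.89 and 3.50; at 14 days the medians are -0.48 for cGAS-KO and -1.69 for STING-KO.

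Between the knockouts at 7 days, most of the matrix genes stood higher in cGAS-KO, but few passed the test. Serpinh1 rose by 1.27 ± 0.19 (edgeR adjusted p = 0.0383) and Fbln1 by 1.75 ± 0.29 (adjusted p = 0.0485) in cGAS-KO against STING-KO, where 0.161% of all genes tested were called and 0.0858% were higher. The libraries did not overlap for 9 of the 10 genes, 8 of which were higher in cGAS-KO, against 19.5% of all genes higher and 21.4% lower without overlap; the exception was Sparc. The same 9 genes had an unadjusted p below 0.05, against 4.89% of all genes higher and 3.98% lower. Of the 8 genes not called, Postn was at 1.58 ± 0.35 (edgeR adjusted p = 0.133), Lum at 1.52 ± 0.44 (0.242), Dcn at 1.44 ± 0.45 (0.277), Lox at 1.24 ± 0.50 (0.474), Loxl2 at 0.90 ± 0.32 (0.373) and Fbn1 at 0.66 ± 0.26 (0.441) on the log2 scale. Thbs1 was on the other side at -0.74 ± 0.26 (edgeR adjusted p = 0.361), and Sparc at -0.16 ± 0.21 (0.946). The median of the 10 was 1.25 and that of all genes 8e-04.

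Neither of these 2 calls held in each setting. Without cGAS-KO replicate 1 the edgeR adjusted p was 0.297 for Serpinh1 and 0.331 for Fbln1, without STING-KO replicate 1 it was 0.0812 and 0.246, and without STING-KO replicate 2 it was 0.135 and 0.175. With the replicate number as a block Fbln1 was at an adjusted p of 0.0655 and 1 gene stayed called; with edgeR's legacy fit, with only the 4 libraries compared, or once 7-day WT and also 14-day STING-KO were dropped, none of the 10 was called. With the DESeq2 Wald test Postn was called too (adjusted p = 0.0148).

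Lists of related genes were read in the same comparisons against WT, in which 27.8% of all genes tested were higher in cGAS-KO and 26.3% in STING-KO; each list below excludes the 10 genes. Of 33 genes of collagen folding, modification and export, 21 rose and 2 fell in cGAS-KO and 18 rose and 3 fell in STING-KO at 7 days, with medians of 0.96 and 0.79. P4hb, the beta subunit of prolyl 4-hydroxylase, had means of 451 CPM in cGAS-KO, 457 CPM in STING-KO and 90.8 CPM in WT. Plod1, a lysyl hydroxylase that prepares the cross-linking residues, had means of 191, 218 and 24.8 CPM. All 3 further lysyl oxidases rose in both knockouts. Loxl1, the form needed for elastic fibres, had means of 105, 51.4 and 4.16 CPM in cGAS-KO, STING-KO and WT, and Loxl3 had means of 41.4, 30.5 and 4.94 CPM. Of 14 further small leucine-rich proteoglycans, 9 rose and 1 fell in cGAS-KO and 4 rose and 1 fell in STING-KO, where 4 of 14 is near the 26.3% of all genes tested that were higher. Bgn, biglycan, the closest relative of decorin, had means of 448, 252 and 11.03 CPM. Of 18 microfibril and elastic-fibre genes, 16 rose in cGAS-KO and 13 in STING-KO and none fell at the adjusted threshold; by unadjusted p below 0.05, 0 fell as well. Mfap4, a microfibril-associated protein, rose by 4.35 ± 0.32 and 3.004 ± 0.31.

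Other matricellular genes were divided: of 22, 12 rose and 4 fell in cGAS-KO, and 9 rose and 6 fell in STING-KO. Spp1, osteopontin, which macrophages and microglia also make, had means of 3113 CPM in cGAS-KO, 8956 CPM in STING-KO and 9.82 CPM in WT. Spock2, a proteoglycan of brain matrix, fell by 1.39 ± 0.19 (edgeR adjusted p = 8.35e-05) in STING-KO. Of 11 fibrillar collagens, 8 rose in cGAS-KO and 7 in STING-KO. Col1a2 had means of 1016 CPM in cGAS-KO, 506 CPM in STING-KO and 11.1 CPM in WT. Of 24 genes of TGF-beta signalling tested, 16 rose and 1 fell in cGAS-KO and 13 rose and 2 fell in STING-KO. Tgfb1, the ligand TGF-beta 1, had means of 145, 188 and 6.30 CPM, and its receptor gene Tgfbr2 had means of 278, 266 and 20.3 CPM. Between the knockouts at 7 days none of the genes of these 7 lists passed the adjusted threshold in edgeR; at an unadjusted p below 0.05, 7 collagen-processing genes, 2 lysyl oxidases, 7 proteoglycans, 8 microfibril genes, 8 matricellular genes, 3 fibrillar collagens and 3 TGF-beta genes stood higher in cGAS-KO, and 1 collagen-processing gene, 3 matricellular genes and 1 TGF-beta gene stood lower.

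Markers of several cell types moved with the matrix genes at 7 days. Of 23 fibroblast markers tested, 22 rose in cGAS-KO and 18 in STING-KO, and their summed level was 3374 to 5344 CPM in cGAS-KO, 1899 to 2328 CPM in STING-KO and 176 to 195 CPM in WT; S100a4 was at 0 counts in WT replicate 2 and Dpt in cGAS-KO replicate 1. Col1a1, Col1a2 and Col3a1 are in this list and in that of fibrillar collagens. Pdgfrb, shared by fibroblasts and pericytes, was at 235 and 140 CPM, at 144 and 107 CPM and at 27.1 and 26.6 CPM in the same order. Of 14 monocyte and macrophage markers, 13 rose in cGAS-KO and 11 in STING-KO, with sums of 6063 to 6268, 6935 to 7253 and 121 to 135 CPM. All 10 microglia markers rose in both, with sums of 3074 to 3467, 3752 to 4226 and 307 to 322 CPM. Among 12 endothelial markers, 11 and 9 rose (752 to 1269, 657 to 716 and 340 to 347 CPM), and of 10 pericyte and smooth muscle markers, 9 and 7 rose (450 to 712, 292 to 383 and 167 to 169 CPM). Between the knockouts, 2 fibroblast markers were higher in cGAS-KO at the adjusted threshold, beside 0.0858% of all genes tested. With only the libraries compared in the fit, 1 gene of all those tested was higher at that threshold. At an unadjusted p below 0.05, 18 of 23 fibroblast markers were higher, beside 4.89% of all genes. The median log2 change of the 23 was 1.15, beside 1.25 for the 10 matrix genes. At that unadjusted p, 6 of 12 endothelial, 5 of 10 pericyte and smooth muscle and 4 of 14 monocyte and macrophage markers were also higher in cGAS-KO, and 2 of the last were lower; none of these passed the adjusted threshold in edgeR.

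Markers that do not belong to the striatum moved as well. Of 12 choroid plexus markers, 12 rose in cGAS-KO and 11 in STING-KO, with sums of 3331 to 6221 CPM, 3799 to 5967 CPM and 221 to 346 CPM in WT. Of 9 pyramidal neuron markers, 6 fell in each knockout, with sums of 432 to 589, 239 to 452 and 1948 to 2301 CPM. The choroid plexus carries a stroma with fibroblasts of its own. The part of these cell types and regions in the rise of the 10 genes was not tested.

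**Figure D3:**
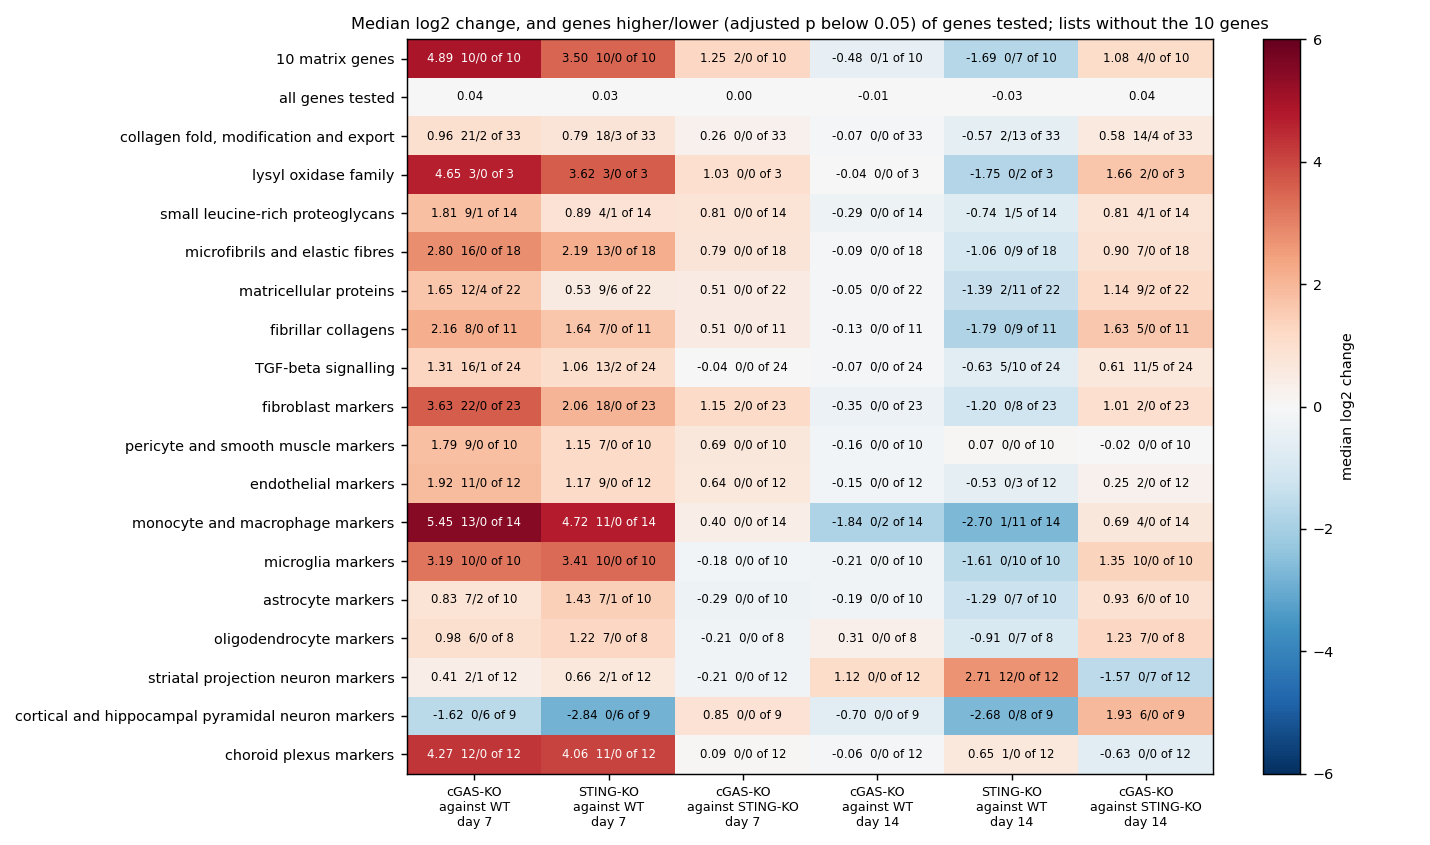
Each cell gives a list's median log2 change in a genotype comparison, then the numbers of its genes higher and lower (edgeR adjusted p below 0.05) of those tested; colour is the median, and lists exclude the 10 genes. At 7 days against WT all lists but that of pyramidal neuron markers have medians above 0 in both knockouts. At 14 days in cGAS-KO against WT the 7 matrix and TGF-beta lists lie between -0.29 and -0.04.

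At 14 days more of the genes were called against WT in STING-KO than in cGAS-KO. In cGAS-KO 1 of the 10 genes fell, Thbs1, and the others did not pass the test. In STING-KO 7 fell: Serpinh1, Thbs1, Lum, Dcn, Lox, Loxl2 and Sparc. Of these, Lum, Dcn and Loxl2 were not called between the knockouts themselves (edgeR adjusted p 0.261, 0.789 and 0.209). The medians of the 10 genes were -0.48 in cGAS-KO and -1.69 in STING-KO, where those of all genes tested were -0.01 and -0.03. The share of all genes called was 0.0303% in cGAS-KO, 0.0303% lower and 0 higher, and 33.9% in STING-KO, 17.4% lower. Again both comparisons share the 2 WT libraries.

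Thbs1 was at 30.1 and 22.7 CPM in 14-day WT, at 4.14 and 6.06 CPM in cGAS-KO and at 1.80 and 2.41 CPM in STING-KO. The 3 groups did not overlap. Thbs1 fell by 2.37 ± 0.30 (edgeR adjusted p = 0.0233) in cGAS-KO and by 3.65 ± 0.35 (adjusted p = 5.47e-05) in STING-KO. The call in cGAS-KO is near the threshold: the adjusted p was 0.0932 when cGAS-KO replicate 1 was dropped, 0.107 for cGAS-KO replicate 2, 0.110 for WT replicate 1, and 0.0902 once 7-day WT and also 14-day STING-KO were dropped.

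Serpinh1 was at 39.0 and 50.5 CPM in WT, at 42.5 and 50.3 CPM in cGAS-KO and at 16.3 and 14.0 CPM in STING-KO. WT and cGAS-KO overlapped, with a change of 0.05 ± 0.19 (edgeR adjusted p = 0.950), and STING-KO lay below both, and Serpinh1 fell by 1.56 ± 0.20 (adjusted p = 0.000209) against WT. Sparc had the same layout, with WT at 798 and 664 CPM, cGAS-KO at 767 and 666 CPM and STING-KO at 305 and 324 CPM. It fell by 1.22 ± 0.21 (edgeR adjusted p = 0.00110) in STING-KO.

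In Lum, Dcn and Lox the 14-day WT libraries lay far apart, with replicate 2 above replicate 1. Lum was at 4.44 and 14.6 CPM in WT, at 2.76 and 2.37 CPM in cGAS-KO and at 0.840 and 1.498 CPM in STING-KO. Dcn was at 20.4 and 67.4 CPM in WT, at 13.7 and 14.8 CPM in cGAS-KO and at 13.8 and 11.2 CPM in STING-KO. Both WT libraries lay above the knockouts for these 2 genes, whereas cGAS-KO and WT overlapped for Lox (5.87 and 5.16 CPM against 4.32 and 13.2 CPM). In cGAS-KO the changes were -1.90 ± 0.55 for Lum, -1.62 ± 0.47 for Dcn and -0.68 ± 0.59 for Lox, with edgeR adjusted p of 0.279, 0.279 and 0.708. In STING-KO Lum fell by 3.04 ± 0.66 (edgeR adjusted p = 0.00509) and Dcn fell by 1.81 ± 0.48 (adjusted p = 0.0143).

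Lox was at 0.120 and 1.76 CPM in 14-day STING-KO, where replicate 1 holds 2 counts, so its fitted change of -3.26 ± 0.81 (edgeR adjusted p = 0.00990) rests on few counts. By summed counts, 29 against 315, the ratio of STING-KO to WT was 0.102 (95% exact interval 0.0669 to 0.149, counting error only). With 1 library left out the fitted change ran from -6.14 (without STING-KO replicate 2) to -2.25 (without WT replicate 2). Loxl2 was at 2.92 and 5.76 CPM in WT, at 2.27 and 1.42 CPM in cGAS-KO and at 0.840 and 0.977 CPM in STING-KO, with no overlap between any of these groups. The change in cGAS-KO was -1.23 ± 0.46 (edgeR adjusted p = 0.369), and in STING-KO it fell by 2.26 ± 0.55 (adjusted p = 0.00837).

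Postn, Fbn1 and Fbln1 did not pass the test in either knockout at 14 days. Postn was at 5.72 and 12.9 CPM in WT, at 8.23 and 8.04 CPM in cGAS-KO and at 10.1 and 13.4 CPM in STING-KO, with overlap of WT and both knockouts and a change of 0.33 ± 0.38 (edgeR adjusted p = 0.540) in STING-KO. Fbn1 was at 8.82 and 11.1 CPM in WT, at 10.01 and 6.39 CPM in cGAS-KO and at 13.4 and 11.2 CPM in STING-KO, where the change was 0.30 ± 0.29 (adjusted p = 0.457). Both had group means above WT in STING-KO, whereas the other 8 had means below it. Fbln1 was at 15.6 and 27.4 CPM in WT, at 17.6 and 19.2 CPM in cGAS-KO and at 12.5 and 11.3 CPM in STING-KO, with a change of -0.86 ± 0.31 (edgeR adjusted p = 0.0509) in the latter.

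Several of the falls in STING-KO depended on 1 library or on the filter. Without STING-KO replicate 1 the calls of Lum, Dcn, Lox and Loxl2 were lost (edgeR adjusted p 0.0826, 0.0887, 0.122 and 0.0824), and 3 of the 10 genes stayed called. Without WT replicate 2 those of Dcn, Lox and Loxl2 were lost (0.192, 0.0937 and 0.0726), and without STING-KO replicate 2 that of Dcn (0.100). With no filter on low counts those of Dcn (0.1004) and Lox (0.0854) were lost. Fbln1 passed without WT replicate 1, at an adjusted p of 0.0175, and with DESeq2, the stricter filter or the legacy fit, at 0.0262 to 0.0483. The falls of Serpinh1, Thbs1 and Sparc held with each of the 4 libraries left out.

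Of the 9 genes whose libraries did not overlap between STING-KO and WT at 14 days, 8 were lower and Fbn1 was higher; among all genes tested, 33% were lower and 30.6% higher without overlap. Between cGAS-KO and WT 4 genes, Thbs1, Lum, Dcn and Loxl2, had no overlap and all were lower, against 20.2% of all genes; the same 4 had an unadjusted p below 0.05, against 5.55% lower. With the DESeq2 Wald test Lum (adjusted p = 0.0297) and Dcn (0.0393) were called in cGAS-KO as well.

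Set against each other at 14 days, cGAS-KO was higher than STING-KO for Serpinh1 by 1.61 ± 0.20 (edgeR adjusted p = 0.000242), for Sparc by 1.19 ± 0.21 (adjusted p = 0.00141), for Thbs1 by 1.28 ± 0.38 (adjusted p = 0.0226) and for Lox by 2.59 ± 0.84 (adjusted p = 0.0325). These are 4 of the 10 genes, where 35.9% of all genes tested were called and 18.2% were higher. The ratio of summed Lox counts was 6.10 (95% exact interval 4.14 to 9.31, counting error only). With 1 library left out the fitted log2 change of Lox ran from 1.63 (without STING-KO replicate 1) to 5.46 (without STING-KO replicate 2), and the call was lost without STING-KO replicate 1 (adjusted p = 0.273) or either cGAS-KO library (0.0941 and 0.0747). That of Thbs1 was lost without cGAS-KO replicate 2 (0.130), STING-KO replicate 1 (0.180) or STING-KO replicate 2 (0.0600), and with only the 4 libraries compared (0.0527), and that of Lox with no filter (0.174). Of the other 6, Lum was at 1.14 ± 0.75, Loxl2 at 1.03 ± 0.61, Fbln1 at 0.63 ± 0.31, Dcn at 0.19 ± 0.49, Postn at -0.53 ± 0.38 and Fbn1 at -0.58 ± 0.29 on the log2 scale, with edgeR adjusted p of 0.133 to 0.789. The median of the 10 was 1.08, beside 0.04 for all genes.

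In the related lists at 14 days, too, more genes were called against WT in STING-KO than in cGAS-KO. In cGAS-KO against WT none of the 7 lists had a gene past the adjusted threshold in edgeR; at an unadjusted p below 0.05, 4 collagen-processing genes and 1 proteoglycan were higher, 1 microfibril gene was lower, and 2 genes were higher and 2 lower in each of the matricellular, fibrillar collagen and TGF-beta lists. Spp1 had means of 94.7 CPM in cGAS-KO and 888 CPM in WT (log2 change -3.23 ± 0.48, adjusted p = 0.0608), and Col1a2 had means of 25.5 and 53.6 CPM (adjusted p = 0.401). In STING-KO against WT 17.4% of all genes tested were lower. There 9 of 11 fibrillar collagens fell, as did 13 of 33 collagen-processing genes (2 rose), 2 of 3 lysyl oxidases and 5 of 14 proteoglycans (1 rose). So did 9 of 18 microfibril genes, 11 of 22 matricellular genes (2 rose) and 10 of 24 TGF-beta genes (5 rose). Col5a1, a chain of the collagen V that starts fibrils, had means of 3.07 CPM in STING-KO and 33.1 CPM in WT, and Loxl3 had means of 6.79 and 19.4 CPM. Epyc, epiphycan, rose by 2.29 ± 0.29 and Adamts3, a procollagen N-propeptidase, by 2.10 ± 0.24, and Spock3, a neuronal proteoglycan, had means of 564 and 101 CPM.

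Cell type markers again differed between the groups. In 14-day STING-KO against WT all 12 striatal projection neuron markers rose, with sums of 6751 to 7094 CPM against 934 to 1174 CPM in WT and 1848 to 2976 CPM in cGAS-KO. Of 9 pyramidal neuron markers 8 fell, with sums of 79.7 to 128 CPM in STING-KO, 229 to 463 CPM in cGAS-KO and 379 to 701 CPM in WT. All 10 microglia markers fell (579 to 1107 CPM against 2571 to 2709 CPM), as did 11 of 14 monocyte and macrophage markers (129 to 219 CPM against 1048 to 1307 CPM; 1 rose). Of 23 fibroblast markers 8 fell, with sums of 193 to 200 CPM in STING-KO, 269 to 272 CPM in cGAS-KO and 279 to 509 CPM in WT; Twist2 was at 0 counts in both STING-KO libraries, Dpt in replicate 1 and Foxc2 in replicate 2, Twist2 also in WT replicate 1 and Dpt also in cGAS-KO replicate 2. None of the pericyte and smooth muscle markers passed (edgeR; 0 at an unadjusted p below 0.05), at 209 to 277 CPM and 234 to 274 CPM in WT. Of 12 endothelial markers 3 fell, near the share of all genes tested that were lower (17.4%). Their sums were 481 to 551 CPM in STING-KO and 628 to 871 CPM in WT. Of 12 choroid plexus markers 1 rose, with sums of 713 to 1482 CPM in STING-KO and 432 to 995 CPM in WT. In cGAS-KO against WT 2 monocyte and macrophage markers fell (673 to 711 CPM), and Arg1 and Chil3 were at 0 counts in cGAS-KO replicate 1. The 14-day WT library that was high in Lum, Dcn and Lox, replicate 2, differed from replicate 1 in marker sums. The sums were higher for fibroblast (509 and 279 CPM) and choroid plexus markers (995 and 432 CPM). Col1a1 of these was at 75.8 and 14.7 CPM and Ttr at 351 and 40.4 CPM, whereas Pdgfrb was at 41.8 and 44.0 CPM. The sums were lower for endothelial (628 and 871 CPM) and for pericyte and smooth muscle markers (234 and 274 CPM). The part of these cell types and regions in the values of the 10 genes was not tested.

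Between the days the genes moved in opposite directions in WT and in the knockouts. From 7 to 14 days in WT 7 of the 10 rose and 1, Fbn1, fell, with a median change of 1.60; 43.9% of all genes tested were called, 24.1% higher and 19.7% lower, and their median was 0.07. In cGAS-KO all 10 fell, with a median of -3.62, where 30.4% of all genes were called and 17% were lower. In STING-KO 9 of 10 fell, with a median of -2.98, where 56.9% were called and 29.5% were lower; Postn did not pass the test. Each day and genotype is a separate set of libraries, so these are differences between groups and not courses within animals.

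The rises in WT were led by Lox, with 315 counts at 14 days and 11 at 7 days, a ratio of 30.3 (95% exact interval 16.7 to 61.3, counting error only) and a fitted change of 4.88 ± 0.96 (edgeR adjusted p = 0.00189), which ran from 3.81 (without 14-day replicate 2) to 5.66 (without 7-day replicate 2) with 1 library left out. Thbs1 rose by 3.15 ± 0.33 (adjusted p = 2.97e-05), Loxl2 by 2.88 ± 0.57 (0.00190), Postn by 2.79 ± 0.49 (0.000939) and Serpinh1 by 1.78 ± 0.20 (4.12e-05). These 5 rises held with each of the 4 WT libraries left out. Fbln1 rose by 0.95 ± 0.31 (edgeR adjusted p = 0.0265), Sparc rose by 0.63 ± 0.21 (0.0268) and Fbn1 fell by 0.81 ± 0.28 (0.0368). These 3 did not hold in this way: Fbln1 was at 0.309 without 14-day replicate 2 and 0.182 without 7-day replicate 2, Sparc at 0.166 without 14-day replicate 1 and 0.230 without 7-day replicate 2, and Fbn1 at 0.191 without 14-day replicate 1, 0.0503 without 14-day replicate 2 and 0.217 without 7-day replicate 1. Lum, at 1.43 ± 0.54 (edgeR adjusted p = 0.0528), and Dcn, at 1.04 ± 0.46 (0.0906), passed without 14-day replicate 1, at 0.00929 and 0.00640, and Lum passed with DESeq2 (0.0167) and with the legacy fit (0.0465). With no filter Fbln1 was at 0.0525.

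In cGAS-KO Sparc fell by 0.89 ± 0.21 (edgeR adjusted p = 0.00747), the smallest of the 10 falls, Lum fell by 5.66 ± 0.56 (7.55e-05), the largest, and Thbs1 fell by 5.004 ± 0.32 (5.63e-06). That of Sparc was lost without 14-day replicate 2 (0.0555) or 7-day replicate 1 (0.0778). In STING-KO Thbs1 fell by 7.02 ± 0.37 (edgeR adjusted p = 2.08e-07), Lox fell by 5.90 ± 0.75 (5.85e-05), Lum fell by 5.28 ± 0.62 (3.55e-05) and Serpinh1 fell by 3.11 ± 0.21 (5.49e-07). The change of Lox was -4.95 without 14-day replicate 1 and -8.78 without 14-day replicate 2. Postn stood apart at -0.84 ± 0.37 (adjusted p = 0.0720), with 26.7 and 15.5 CPM at 7 days and 10.1 and 13.4 CPM at 14 days; without 7-day STING-KO replicate 2 it passed, at 0.0327.

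**Figure D4:**
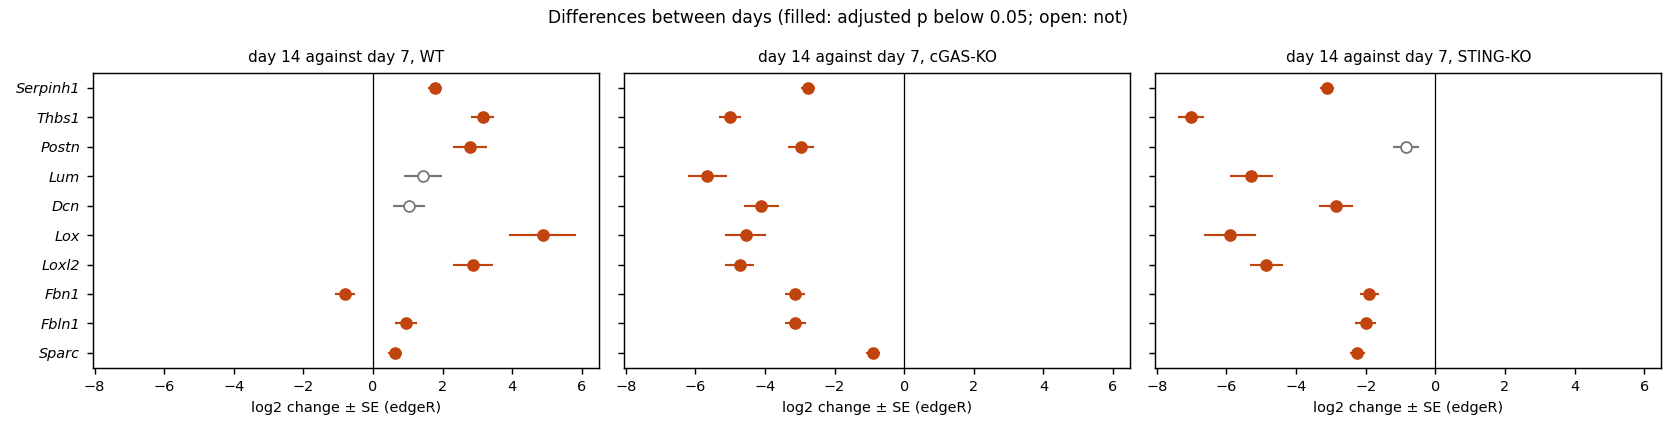
Points are log2 changes of the 10 genes from day 7 to day 14 in each genotype, bars are SE (edgeR, n = 2 per group), and filled points have an adjusted p below 0.05. In WT 9 of 10 points lie above 0, with a median of 1.60, and in both knockouts all 10 lie below 0, with medians of -3.62 and -2.98.

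Whether a knockout effect differed between the days was tested directly. All 10 genes had a lower effect at 14 days than at 7 days in both knockouts, from -1.53 (Sparc) to -9.43 (Lox) on the log2 scale in cGAS-KO and from -1.08 (Fbn1) to -10.78 (Lox) in STING-KO. The medians were -5.44 and -4.39, beside -0.03 for all genes in each, and 36.7% and 51.9% of all genes tested were called, 21% and 27.6% in this direction. These tests share the WT libraries of both days. The related lists were divided between the days. Among all genes tested, 24.1% were higher and 19.7% lower in WT, 17% were lower in cGAS-KO and 29.5% in STING-KO. In WT the counts of the collagen-processing, lysyl oxidase, proteoglycan, microfibril and matricellular lists were near these shares. So was that of the proteoglycans in STING-KO. From 7 to 14 days in WT, 6 of 11 fibrillar collagens, 11 of 33 collagen-processing genes (1 fell), 1 of 3 lysyl oxidases, 4 of 14 proteoglycans (1 fell), 6 of 18 microfibril genes (1 fell) and 15 of 24 TGF-beta genes (2 fell) rose, and of 22 matricellular genes 7 rose and 6 fell. In cGAS-KO 7 of the fibrillar collagens fell, as did 20 collagen-processing genes (1 rose), all 3 lysyl oxidases, 8 proteoglycans (1 rose), 16 microfibril genes, 9 matricellular genes (4 rose) and 11 TGF-beta genes (1 rose). In STING-KO the falls were 10, 23 (3 rose), 3, 5 (1 rose), 13, 12 (3 rose) and 13 (5 rose) in the same order. Col1a2 had means of 11.1 and 53.6 CPM in WT at 7 and 14 days and of 1016 and 25.5 CPM in cGAS-KO. Eln, elastin, had means of 433 CPM at 7 days and 9.30 CPM at 14 days in cGAS-KO, and Mfap4 had 67.3 and 1.17 CPM. Of 23 fibroblast markers 10 rose and 1 fell in WT between the days, 20 fell in cGAS-KO and 16 in STING-KO, with medians of 0.67, -3.36 and -2.29. Of 14 monocyte and macrophage markers 9 rose and 1 fell in WT, 12 fell in cGAS-KO and 11 in STING-KO. Of the 12 choroid plexus markers 2 rose in WT, 12 fell in cGAS-KO and 9 in STING-KO, and of 12 striatal markers 11, 11 and 12 rose in WT, cGAS-KO and STING-KO; their part in the differences between days was not tested.

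Compared per length of exon (CPM per kb), Sparc was the most abundant of the 10 and Serpinh1 the second in all 6 groups. In 7-day cGAS-KO Sparc was at 351 and Serpinh1 at 129 CPM per kb, followed by Lum at 53.1, Dcn at 42.0, Fbln1 at 36.7, Lox at 27.2, Thbs1 at 26.9, Loxl2 at 9.14, Postn at 7.24 and Fbn1 at 5.94. In 7-day STING-KO Thbs1 was the third at 44.9 CPM per kb, above Lum at 18.6. In 7-day WT Sparc was at 124 CPM per kb and Lox, the lowest, at 0.0604. These levels rest on the union of annotated exons (2443 bases for Serpinh1, 3788 for Sparc and 12128 for Fbn1), not on the transcripts in use.

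**Figure D5:**
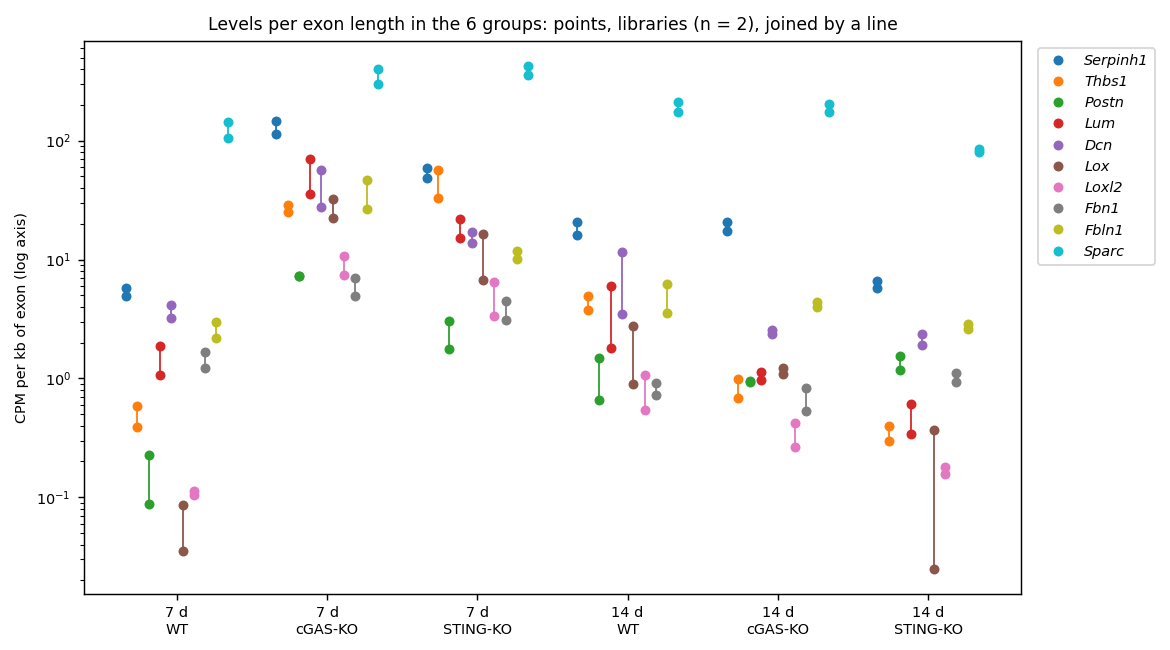
Levels per length are in CPM per kb of exon on a log axis, by gene and group; points are libraries, and a line joins the 2 libraries of a group. Sparc and Serpinh1 are the 2 highest genes in each of the 6 groups, with means from 351 and 129 CPM per kb in 7-day cGAS-KO to 83.0 and 6.19 in 14-day STING-KO.

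The 10 genes varied together across the libraries. Over the 12 libraries, which share their groups, the 45 pairs had a median Pearson r of 0.883 on log2 CPM. The highest was that of Lum and Dcn, 0.981, the proteoglycan pair, which are neighbours on chromosome 10 (Dcn at 97479609-97518143 and Lum at 97565128-97572703, both on the plus strand, GRCm38). The lowest was that of Postn and Fbn1, 0.615. Against the mean of the other 9, r ran from 0.780 for Postn and 0.812 for Fbn1 to 0.991 for Loxl2. Among 15142 other genes with a mean log2 CPM of 1 or more, the most like the mean of the 10 was Col1a2 (r = 0.997), with 1286 and 746 CPM in 7-day cGAS-KO and 13.7 and 8.59 CPM in 7-day WT.

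It was followed by Ppic (a prolyl isomerase, 0.989), Mrc2 (a collagen uptake receptor, 0.989), Hspg2 (perlecan, 0.986), Slc16a12 (a transporter, 0.986), Nid1 (nidogen of basement membranes, 0.986), Bicc1 (an RNA-binding protein, 0.983) and Pcolce (an enhancer of procollagen cleavage, 0.982). An r above 0.9 was reached by 742 of these genes, 4.9%, so likeness to this pattern was not rare. These values describe the 12 libraries and carry no test.

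Parts of 4 of the genes share exon bases with a gene on the other strand, and whether reads were counted by strand is not given in the sources used here. Fbn1 (chr2:125300594-125507993, minus strand) shares 20.1% of its exon bases with Gm9913, which had 3 counts over the 12 libraries. Loxl2 (chr14:69609068-69695834, plus strand) shares 5.57% with Gm27177, which had 29 counts, and Thbs1 (chr2:118111876-118127133, plus strand) shares 3.42% with Gm29233, which had 0. Lox shares 0.628% with AC161119.1, which is not among the genes of the count tables used here. The other genes lie at chr7:99345376-99353239 (Serpinh1, minus), chr3:54361109-54391037 (Postn, plus), chr18:52516067-52529867 (Lox, minus), chr15:85205949-85286535 (Fbln1, plus) and chr11:55394500-55423183 (Sparc, minus), all in GRCm38.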

How the data were processed

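Per the labels' protocols, Trizol RNA gave polyA+ libraries, read in pairs on an Illumina HiSeq 2500. For each library the authors deposited a table of raw counts by Ensembl gene. Per the submitters' processing notes the tools were HISAT2 and featureCounts and the build mm10; versions, annotation release and strand setting are not given in the sources used here. Symbols, exons and coordinates came from GENCODE M21 (GRCm38), which matched 54495 of 54532 IDs, and promoters from RefSeq (GRCm38.p6).

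The test on the counts used edgeR 4.0.16 (R 4.3.3): filterByExpr (minimum count 10, minimum total 15), TMM, estimateDisp and glmQLFit with robust estimation, and glmQLFTest, with all 12 libraries in 1 fit of 6 groups and 6 residual degrees of freedom (biological coefficient of variation 0.194). The Benjamini-Hochberg adjustment ran over the 19822 genes of a contrast, with a threshold of 0.05. SE was taken as the size of the log2 change divided by √F. The 10 genes and the 17 lists (253 genes) were chosen with earlier results of these data known. Named were the 10 genes, among each related list up to 4 genes of smallest adjusted p (or with none called, those of smallest p), 3 markers of a cell type and the 8 genes most like the 10. The fit was also run on simulated counts with the same dispersion for every gene and few changed genes. These conditions differ from those of the data, so that run does not bear on the calls.

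Replicates of a group differed by more than sampling noise (chi-square per degree of freedom 7.76 to 48.6). The alternatives changed the size factors (DESeq2), the test (DESeq2 1.42.0, Wald), the filter (none, or 1 CPM with 10 counts in 2 libraries), the libraries fitted (those compared alone, or each left out), the block (replicate number) and the fit (legacy). Dropping 7-day WT together with 14-day STING-KO was chosen after seeing the data. Where 1 library was left in a group, its variation was assumed to be that of the other groups. Plots were made in matplotlib 3.10.9.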

Additional observations from a re-analysis of the deposited data

Results flagged for a closer look

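The effect of a labelled knockout against WT differed between 7 and 14 days for all 10 matrix genes, by an edgeR test of the difference itself over all 12 libraries (log2 change at 14 days minus that at 7 days, ± SE, adjusted over 19822 genes).

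For cGAS-KO the collagen chaperone Serpinh1 was at -4.55 ± 0.28 and the cross-linking genes Lox and Loxl2 at -9.43 ± 1.07 and -7.61 ± 0.68. The proteoglycans Lum and Dcn were at -7.09 ± 0.76 and -5.14 ± 0.68, and the microfibril genes Fbn1 and Fbln1 at -2.32 ± 0.40 and -4.07 ± 0.43. The matricellular genes Thbs1, Postn and Sparc were at -8.16 ± 0.45, -5.74 ± 0.61 and -1.53 ± 0.29. The edgeR adjusted p ran from 9.8e-07 (Thbs1) to 0.00162 (Sparc).

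For STING-KO Serpinh1 was at -4.89 ± 0.29, Lox at -10.78 ± 1.19 and Loxl2 at -7.74 ± 0.74. Lum was at -6.71 ± 0.83, Dcn at -3.89 ± 0.67, Fbn1 at -1.08 ± 0.39 and Fbln1 at -2.95 ± 0.43. Thbs1 was at -10.17 ± 0.49, Postn at -3.63 ± 0.62 and Sparc at -2.87 ± 0.30. The edgeR adjusted p ran from 8.26e-08 (Thbs1) to 0.0367 (Fbn1); that of Fbn1 was lost with 5 of the libraries left out in turn (highest 0.156, without 7-day STING-KO replicate 1). The values of Lox rest on only 3 and 8 counts in 7-day WT. For STING-KO its value also rests on 2 and 27 counts in the 14-day STING-KO libraries, and ran from -13.63 to -9.72 with 1 library left out. Of all genes tested, 36.7% differed in this way for cGAS-KO and 51.9% for STING-KO.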

How the results depend on the processing

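Of 1320 values of single genes in single comparisons under other settings, 1248 kept their direction and their side of the threshold, 50 lost the call, 12 gained it and 10 changed sign; none that changed sign had been called. The 10 came from 1 library left out of the 14-day groups. In cGAS-KO against WT at 14 days, leaving out a library gave -0.14 to 0.24 for Serpinh1, -0.68 to 0.50 for Postn, -1.27 to 0.35 for Lox, -0.66 to 0.0039 for Fbn1, -0.59 to 0.23 for Fbln1 and -0.16 to 0.10 for Sparc. Postn in STING-KO against WT at 14 days ran from -0.14 to 1.03, and Dcn from 7 to 14 days in WT from -0.11 (without 14-day replicate 2) to 1.65.

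The counts of the 10 genes called moved by over 1.5 times in the following comparisons. In the first 2, calls were also lost with a library left out, as given above, and only the log2 ranges are repeated here. For cGAS-KO against STING-KO at 7 days (2 genes), the count was 1 with the replicate block, 0 with the legacy fit and 0 with only the libraries compared. It was also 0 once 7-day WT and also 14-day STING-KO were dropped. With a library left out the log2 change ran from 1.08 to 1.42 for Serpinh1 and from 1.30 to 2.06 for Fbln1. Over all genes the count was 32, and 2 to 263 in the other settings that left out no single library. For cGAS-KO against WT at 14 days (1 gene), the count was 3 with DESeq2 and 0 without those groups. With a library left out the log2 change of Thbs1 ran from -2.67 to -2.13. Over all genes the count was 6, and 5 to 151 in the other settings that left out no single library. For STING-KO against WT at 14 days (7 genes) it was 3 to 8, and for cGAS-KO against STING-KO at 14 days (4 genes) 2 to 3, with a library left out; over all genes these were 4271 and 4614 with only the libraries compared. The cause of these shifts was not tested. With DESeq2's size factors, 59 of 60 mean levels of a gene in a group moved by less than the spread of replicates. The exception was Postn in 7-day cGAS-KO, which went from 63.0 to 62.5 CPM.

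The labels do not say whether the replicate numbers pair the libraries. Deviations of same-numbered libraries correlated at -0.09 to 0.20 over 15 pairs of groups. With 2 libraries a group these values cannot show pairing or its absence. The blocked fit, which lost the call of Fbln1 named above, is therefore given as a setting only. At 3 counts a library, levels under 0.133 to 0.195 CPM were not resolved, which touches Lox in 7-day WT and 14-day STING-KO.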

Other observations

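The astrocyte and oligodendrocyte lists were the ones without a place beside the matrix genes above. Among all genes tested, 27.8% were higher in cGAS-KO and 26.3% in STING-KO against WT at 7 days. Of 10 astrocyte markers, 7 rose and 2 fell in cGAS-KO and 7 rose and 1 fell in STING-KO against WT at 7 days (edgeR adjusted p below 0.05), with summed levels of 7070 to 8124, 7215 to 11667 and 4287 to 4410 CPM in cGAS-KO, STING-KO and WT. Of 8 oligodendrocyte markers, 6 rose in cGAS-KO and 7 in STING-KO, with sums of 11709 to 13653, 13587 to 18260 and 5257 to 7699 CPM. At 14 days in STING-KO against WT, where 17.4% of all genes tested were lower, 7 of the astrocyte markers and 7 of the oligodendrocyte markers fell. Their sums were 6520 to 6768 and 8567 to 8859 CPM in STING-KO, and 9486 to 13771 and 20416 to 21417 CPM in WT. In cGAS-KO against WT at 14 days none of either list passed, with 1 astrocyte marker lower and 1 oligodendrocyte marker higher at an unadjusted p below 0.05.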
